A study of Homo sapiens with 12 samples.

Results

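MHC class I molecules carry short peptides from inside the cell to its surface, where cytotoxic T cells and natural killer cells read them. The genes of this pathway described here were the heavy chains HLA-B, HLA-C, HLA-E and HLA-F, the light chain B2M, the peptide transporter subunits TAP1 and TAP2, and the inducible proteasome subunits PSMB8 and PSMB9. Members were the genes of this set of 9 that were named in the probe annotation of the series. A probe set was found for 8 of the 9, with 1 probe set each, out of 17687 named genes. HLA-B was not analysed here. All 8 passed the filter on dim probe sets, which kept 12758 genes.

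RNA was measured on whole-transcript arrays in 12 cultures with the MCF-10A background. MCF-10A is an established human line of breast epithelium that does not form tumours. The co-culture (4 arrays) held cells with HER2 L755S and cells with PIK3CA E545K grown together, and was harvested when about 75% of the cells were HER2 mutant. The HER2 L755S single culture (4 arrays) held cells with an altered HER2, a receptor tyrosine kinase. The PIK3CA E545K single culture (4 arrays) held cells with an altered catalytic subunit of PI3K, a lipid kinase. All 3 groups shared the MCF-10A background and medium with a physiologic amount of EGF. Harvest fell between day 7 and day 14, and no other treatment was given, per the labels. The labels give each mutation in a single line, and cultures of unmutated MCF-10A were not analysed here. Which line departed from the parental level therefore cannot be told, and mutation and line cannot be told apart.

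In textbook terms, the proteasome cuts cytosolic proteins, the TAP1-TAP2 pump moves the peptides into the endoplasmic reticulum, and a loading complex fits them onto a heavy chain paired with beta-2-microglobulin. Interferon and NF-kB signalling raise most of these genes together. PSMB8 and PSMB9 then replace the constitutive subunits PSMB5 and PSMB6, which changes the peptides that are made. Breast epithelial cells express class I at a basal level without immune cells present.

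Values are log2 probe-set signals, so a difference of 1 is a doubling of signal. The median over all probe sets of an array was 6.41 to 6.49, and 95% of the 612 negative control probe sets of an array lay below a level of 6.32 to 7.12, called the background level here. It was 6.73 to 7.12 on the HER2 L755S arrays, 6.37 to 6.66 in co-culture and 6.32 to 6.39 in PIK3CA E545K. Counts of arrays above background use each array's own level. For genes at background, a higher signal in HER2 L755S cannot be told apart from this higher level of the controls. Of the members, 7 were above the background level on all 12 arrays. PSMB9 was above it on 2 of 4 co-culture arrays, on 4 of 4 HER2 L755S arrays and on 3 of 4 PIK3CA E545K arrays, so its differences from the HER2 L755S culture are lower limits in size. In a list of 9 markers of breast epithelium, the 5 with a probe set (KRT5, KRT14, CDH1, EPCAM and ITGA6) were above background on all 12 arrays. KRT17, KRT6A, TP63 and LAMB3 of this list had no probe set. The levels of the 5 differed between the lines. In HER2 L755S against PIK3CA E545K, ITGA6 (-2.36) and EPCAM (-2.02) were lower and CDH1 (0.72) and KRT14 (0.60) higher by the limma fit described below, while KRT5 (-0.11) did not pass. The pan-leukocyte gene PTPRC and the endothelial gene PECAM1 were above background on 0 arrays. Of the 8 leukocyte markers with a probe set, 5 were above background on 0 arrays, PTPRC among them. By contrast, NKG7 was above it on 10 of 12 arrays, and CD14 and CD68 on 8 of 12 each. HLA probe sets may also pick up RNA of other HLA genes, given how alike these sequences are, and the split of signal among them is uncertain. The labels give quadruplicate cultures and no more on their origin, so p-values measure the spread between these arrays, which may be technical.

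The upstream sequences of members that differed in size of response are given first, from RefSeq on GRCh38.p14. TAP1 and PSMB9 lie head to head on chromosome 6, with 488 bases between their starts, and are shown as a pair that shares a stretch of DNA. TAP2, their neighbour, is shown because it differed least between the cultures, HLA-F because it differed most among the heavy chains, and B2M because it lies on chromosome 15, away from the others. Each sequence is 300 bases read 5′ to 3′ along the gene, and capitals mark AANNGAAA on either strand, the core that interferon regulatory factors recognise.
TAP1, chr6:32853655-32853954, minus strand: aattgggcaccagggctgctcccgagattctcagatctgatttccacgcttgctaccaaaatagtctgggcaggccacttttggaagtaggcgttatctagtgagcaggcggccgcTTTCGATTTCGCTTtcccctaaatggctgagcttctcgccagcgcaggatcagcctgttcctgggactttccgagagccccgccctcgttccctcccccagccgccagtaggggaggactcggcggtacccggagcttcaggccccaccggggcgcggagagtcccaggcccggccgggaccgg
PSMB9, chr6:32853942-32854241, plus strand: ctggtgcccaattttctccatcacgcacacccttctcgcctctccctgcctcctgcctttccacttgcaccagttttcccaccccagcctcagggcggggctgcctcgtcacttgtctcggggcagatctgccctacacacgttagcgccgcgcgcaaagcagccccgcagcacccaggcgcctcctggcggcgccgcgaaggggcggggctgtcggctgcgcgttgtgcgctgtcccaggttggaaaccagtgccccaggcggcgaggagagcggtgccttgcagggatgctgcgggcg
TAP2, chr6:32838690-32838989, minus strand: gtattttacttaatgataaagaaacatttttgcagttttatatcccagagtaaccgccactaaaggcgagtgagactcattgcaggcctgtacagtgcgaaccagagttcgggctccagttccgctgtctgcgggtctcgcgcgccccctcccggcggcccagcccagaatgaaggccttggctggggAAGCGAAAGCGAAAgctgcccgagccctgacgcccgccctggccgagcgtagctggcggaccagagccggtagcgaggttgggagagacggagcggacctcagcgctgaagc
HLA-F, chr6:29723184-29723483, plus strand: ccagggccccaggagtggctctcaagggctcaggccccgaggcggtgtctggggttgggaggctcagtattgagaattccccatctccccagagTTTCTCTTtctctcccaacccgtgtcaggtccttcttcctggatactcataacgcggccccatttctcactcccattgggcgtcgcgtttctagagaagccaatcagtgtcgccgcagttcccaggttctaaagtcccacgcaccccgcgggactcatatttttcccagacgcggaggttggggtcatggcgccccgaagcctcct
B2M, chr15:44711267-44711566, plus strand: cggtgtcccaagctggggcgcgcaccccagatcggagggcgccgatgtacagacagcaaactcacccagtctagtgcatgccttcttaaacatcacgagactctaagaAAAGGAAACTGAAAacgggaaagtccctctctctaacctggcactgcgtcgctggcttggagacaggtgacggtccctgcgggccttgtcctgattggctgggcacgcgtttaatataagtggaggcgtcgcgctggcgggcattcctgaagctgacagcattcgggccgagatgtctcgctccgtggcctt

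The table held 9 windows for 7 members, with 2 start sites each for TAP1 and PSMB8. Matches to AANNGAAA were present in 6 of the 9 windows, 1 each of HLA-C, HLA-F, B2M, TAP1, TAP2 and PSMB8, and in 22.8% of all 35116 windows of the same length. The second windows of TAP1 and PSMB8 held none. The windows with a match of B2M, TAP1, TAP2 and PSMB8 each had 2 matches that overlapped each other. The PSMB9 window held none, and HLA-E is named only. The 2 TAP1 matches, at -134 and -128 from the TAP1 start, lie between the starts of TAP1 and PSMB9. They fall outside the PSMB9 window, which reaches 250 bases before the PSMB9 start. TAP1 and TAP2 each had a pair of matches upstream, and their differences between the cultures were of unlike size. Of these 2 genes, TAP1 alone also had the NF-kB-like motif given below. A part of any motif in the differences was not tested. The STAT-type core TTCNNNGAA was found in 2 of the 9 windows (7.66% of all windows), an NF-kB-like motif in 2, of B2M and TAP1 (5.68%), and the CCAAT box ATTGG in 5 (34.6%). Both strands were searched, and matches to different motifs did not overlap in the windows of the members. The motifs were chosen with the sequences and the results known, and a match is a string of letters, not a measured binding site.

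The signal of every class I heavy chain measured was higher in the HER2 L755S culture than in the other cultures, and above background on all 12 arrays. HLA-C, a classical heavy chain that presents peptides to T cells and to receptors on natural killer cells, had 11.73, 12.02, 12.02 and 12.18 log2 signal on the co-culture arrays, 13.28, 13.56, 13.79 and 13.41 on the HER2 L755S arrays, and 11.98 ± 0.08 on the PIK3CA E545K arrays (SD, n = 4), which ran from 11.87 to 12.06. The HER2 L755S arrays stood apart, and the co-culture arrays enclosed the range of the PIK3CA E545K arrays. HLA-E, which displays leader peptides of other class I chains to natural killer cells, had 10.72, 10.63, 10.85 and 10.95 in co-culture, 11.76, 11.94, 12.04 and 11.89 in the HER2 L755S culture and 10.43, 10.26, 10.62 and 10.45 in the PIK3CA E545K culture. Its groups did not overlap, although the lowest co-culture array and the highest PIK3CA E545K array nearly met. HLA-F, a non-classical heavy chain that can reach the surface without peptide, had 10.77, 10.70, 10.69 and 10.83 in co-culture, 12.49, 12.73, 12.63 and 12.56 in the HER2 L755S culture and 10.04, 10.37, 10.31 and 10.19 in the PIK3CA E545K culture. All 3 groups were apart for HLA-F, with the co-culture just above the PIK3CA E545K arrays.

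B2M, the light chain that every class I heavy chain needs to fold, had 15.05, 15.25, 15.06 and 15.21 in co-culture, 16.35, 16.35, 16.35 and 16.32 in the HER2 L755S culture and 14.96, 14.51, 14.85 and 14.94 in the PIK3CA E545K culture. Its 3 groups did not overlap. The SD was 0.10 in co-culture, 0.02 in the HER2 L755S culture, whose arrays lay almost on a single value, and 0.21 in the PIK3CA E545K culture.

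**Figure D1:**
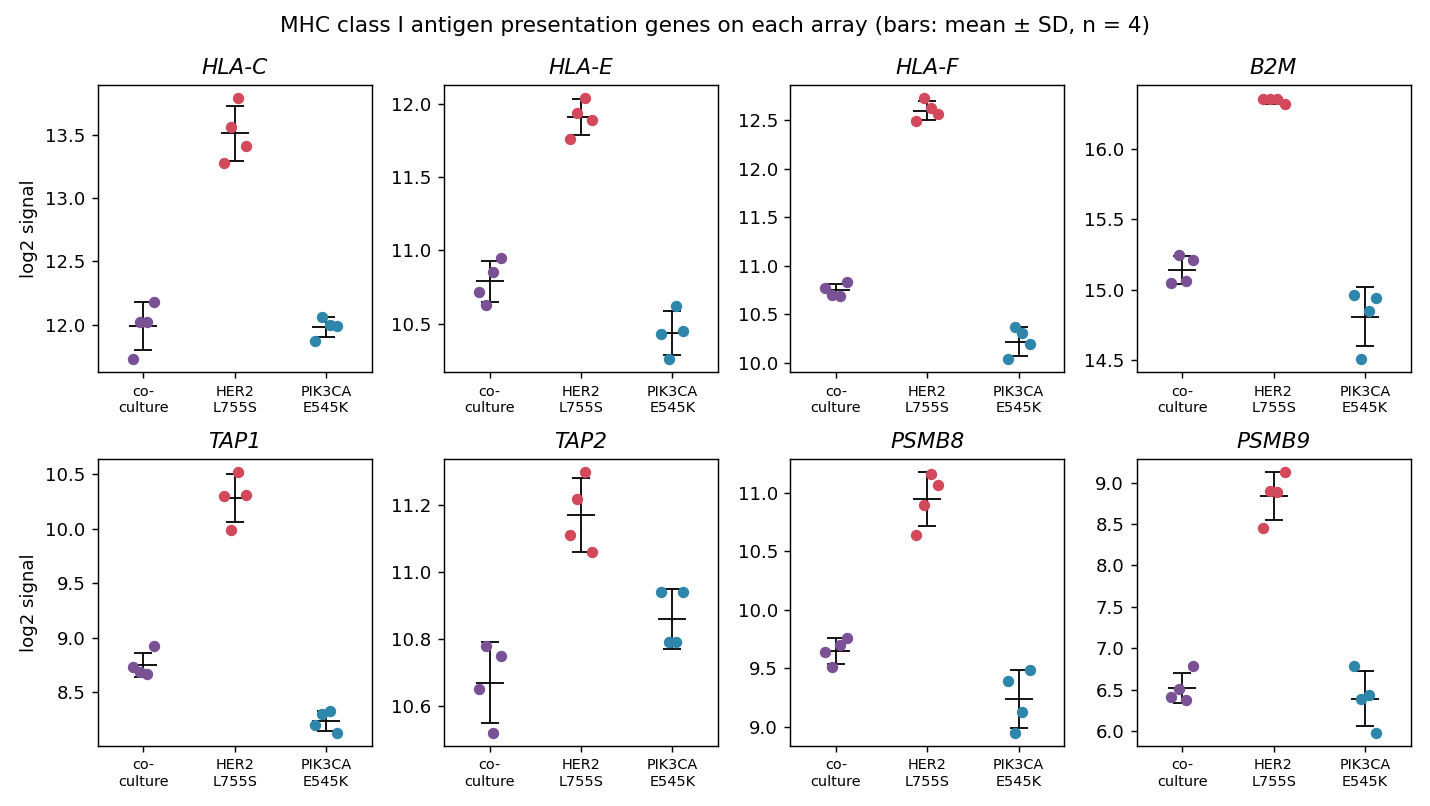
Log2 signal (vertical axes, scaled per gene and not starting at 0) of the 8 members on each of the 12 arrays, by culture (horizontal axis: co-culture, HER2 L755S, PIK3CA E545K). Points are arrays and bars are the mean ± SD of 4 arrays; for all 8 genes every HER2 L755S array lies above every array of the other cultures, and only for TAP2 does the co-culture lie below the PIK3CA E545K arrays.

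Of the transporter subunits, TAP1 followed the heavy chains and TAP2 did so only weakly. TAP1 had 8.73, 8.69, 8.67 and 8.92 in co-culture, 10.30, 9.99, 10.52 and 10.31 in the HER2 L755S culture and 8.20, 8.30, 8.33 and 8.13 in the PIK3CA E545K culture. TAP2 had 10.65, 10.78, 10.52 and 10.75 in co-culture, 11.11, 11.22, 11.30 and 11.06 in the HER2 L755S culture and 10.94, 10.79, 10.79 and 10.94 in the PIK3CA E545K culture. For TAP1 the co-culture arrays lay above the PIK3CA E545K arrays, and for TAP2 below them, in each case without overlap.

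The inducible proteasome subunits were among the members with wide gaps. PSMB8, which takes the place of the chymotrypsin-like subunit, had 9.64, 9.51, 9.70 and 9.76 in co-culture, 10.64, 10.90, 11.16 and 11.07 in the HER2 L755S culture and 9.39, 8.95, 9.13 and 9.49 in the PIK3CA E545K culture. PSMB9, which takes the place of the caspase-like subunit, had 6.41, 6.51, 6.38 and 6.78 in co-culture, 8.45, 8.90, 8.88 and 9.13 in the HER2 L755S culture and 6.78, 6.39, 6.43 and 5.98 in the PIK3CA E545K culture. The PSMB8 groups were apart, whereas for PSMB9 the co-culture and PIK3CA E545K arrays overlapped at the background level.

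Within a culture the members moved little between arrays. HER2 L755S replicate 1 was the lowest of its group for 5 of 8 members and averaged -0.15 from the group mean over the members, while replicate 3 was the highest for 5 and averaged 0.13. Co-culture replicate 4 was the highest of its group for 6 members and averaged 0.14. These shifts between arrays were small beside the differences between the cultures described next, except for those of the co-culture from the PIK3CA E545K culture.

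The single cultures, which are the controls of the design, were compared first. All 8 members were higher in the HER2 L755S culture than in the PIK3CA E545K culture by limma, a linear model with a moderated spread, at a Benjamini-Hochberg adjusted p under 0.05 over 12758 genes. In the same comparison 30% of all genes were higher (3828 of 12758) and 29.5% lower, so a single call is common here. A log2 difference of 1 or more was found for 7 of 8 members, and for 9.01% of all genes. The median difference was 1.62 over the 8 members and 0.05 over all genes. All 8 were without overlap between the arrays of the lines, against 26.4% of all genes higher in this way. The members were chosen with earlier results of these data known. The shares here and in the comparisons below therefore describe the members and do not test them as a set.

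By size, PSMB9 was higher in the HER2 L755S culture by 2.45 ± 0.18 on the log2 scale (SE, limma adjusted p 3.79e-11), a 5.46-fold difference, at 8.84 ± 0.29 in HER2 L755S and 6.39 ± 0.33 in PIK3CA E545K (SD, n = 4 each). HLA-F followed at 2.38 ± 0.10 (limma adjusted p 8.02e-16), with 12.60 ± 0.10 in HER2 L755S and 10.22 ± 0.15 in PIK3CA E545K. TAP1 was higher by 2.04 ± 0.13, a 4.11-fold difference. PSMB8 was higher by 1.70 ± 0.13, B2M by 1.53 ± 0.08, HLA-C by 1.53 ± 0.11 and HLA-E by 1.47 ± 0.10. These 4 differences had overlapping 95% intervals, from 1.25 at the lowest bound to 1.98 at the highest. TAP2 was higher by 0.31 only, with an interval from 0.10 to 0.51 that lay below the intervals of all other members (limma adjusted p 0.00949). When the test asked for more than 0.5 on the log2 scale, 27.6% of all genes passed in either direction, and of the members 7 passed and TAP2 did not.

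**Figure D2:**
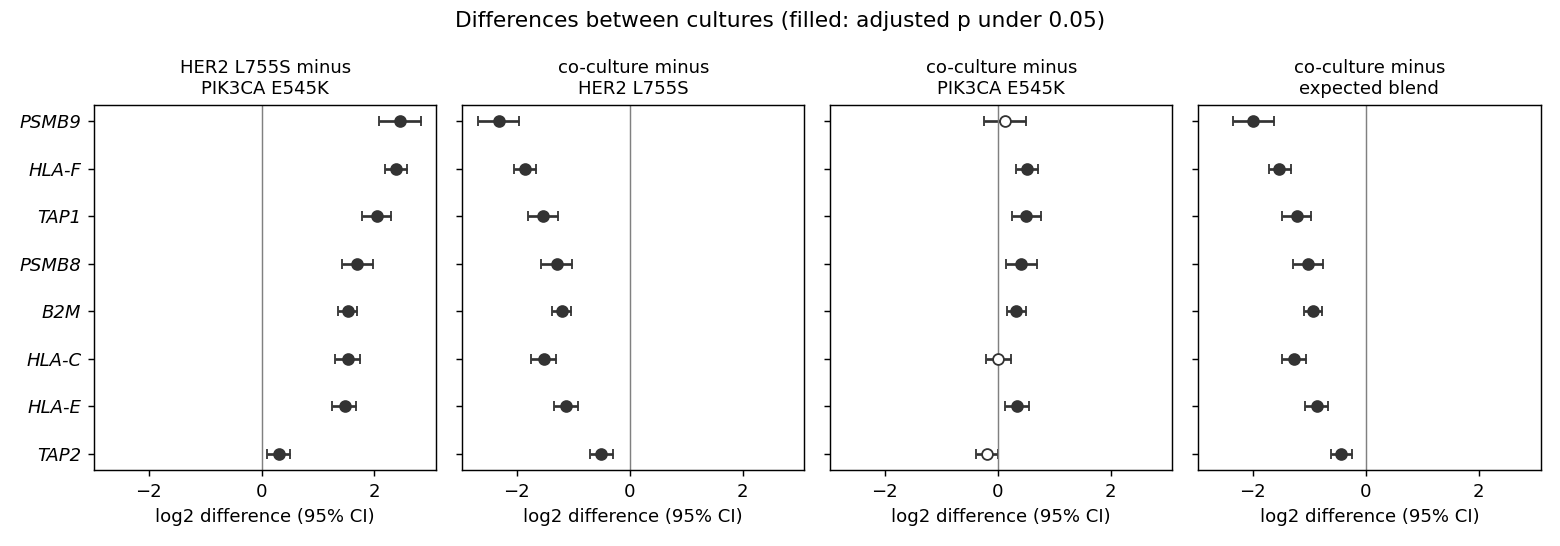
Log2 differences (horizontal axes, points with 95% confidence intervals from limma, n = 4 arrays per group) of the 8 members (vertical axis) in 4 comparisons. Filled points have an adjusted p under 0.05; the HER2 L755S culture is 0.31 to 2.45 above the PIK3CA E545K culture, and the co-culture is 0.50 to 2.32 below the HER2 L755S culture but within 0.52 of the PIK3CA E545K culture.

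Each inducible proteasome subunit was set against its constitutive counterpart on the same array. PSMB5, the constitutive chymotrypsin-like subunit, went the other way from PSMB8, with 12.03 ± 0.17 in HER2 L755S and 12.76 ± 0.10 in PIK3CA E545K (SD, n = 4 each). PSMB6 had 11.45 ± 0.22 in HER2 L755S and 11.88 ± 0.07 in PIK3CA E545K, and PSMB7 had 12.32 ± 0.07 in HER2 L755S and 12.85 ± 0.11 in PIK3CA E545K. By limma PSMB5 was lower in HER2 L755S by -0.73 (adjusted p 3.09e-07), PSMB6 by -0.42 (0.0033) and PSMB7 by -0.53 (3.54e-06). The within-array difference PSMB8 minus PSMB5 was therefore higher in HER2 L755S by 2.43 on the log2 scale, and PSMB9 minus PSMB6 by 2.87. Each had an exact two-sided permutation p of 0.0286, the smallest that 4 arrays against 4 can give, and 0.0367 adjusted over 9 tests (3 pairs in 3 comparisons). PSMB10 minus PSMB7 was higher by 1.01 (same exact p), but PSMB10, the third inducible subunit, was above background on 0 of 12 arrays, and its difference is one of signals at background.

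**Figure D3:**
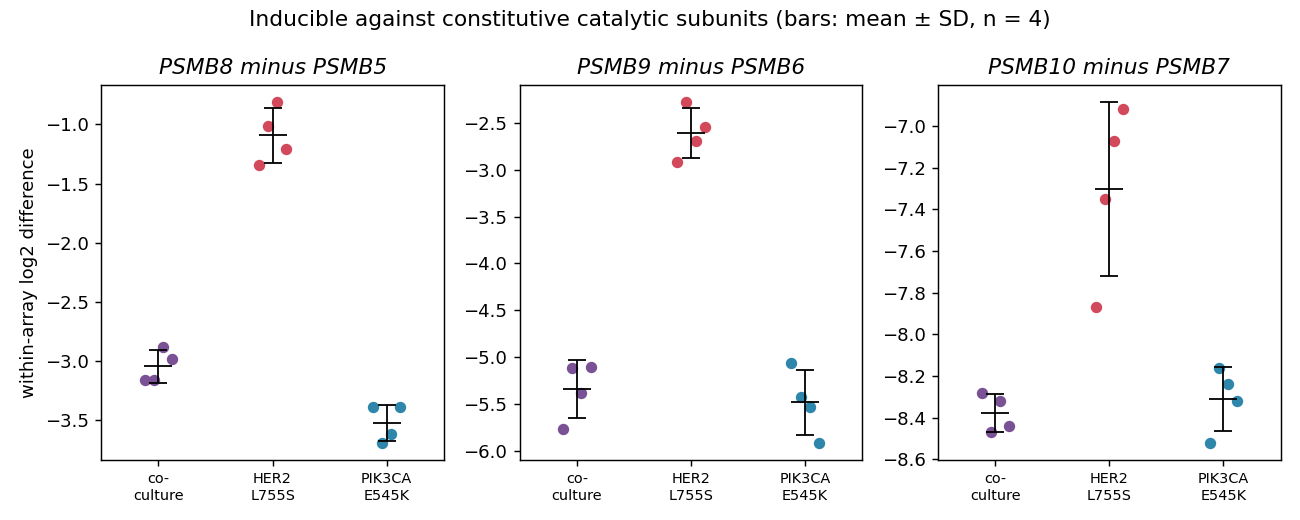
Within-array log2 difference (vertical axes, own scale per panel) between each inducible proteasome subunit and the constitutive subunit it replaces, by culture. Points are arrays and bars the mean ± SD of 4 arrays. PSMB8 minus PSMB5 averages -3.04 in co-culture, -1.09 in HER2 L755S and -3.52 in PIK3CA E545K. The PSMB10 panel rests on a gene at background, and PSMB9 was near background in co-culture and in PIK3CA E545K.

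The co-culture was next set against the HER2 L755S culture, the source of most of its cells. All 8 members were lower in co-culture (limma adjusted p under 0.05), as were 26.0% of all genes, and 7 of 8 had a log2 difference of -1 or below, as had 5.40% of all genes. The median difference was -1.41 over the members and -0.05 over all genes. No member's arrays overlapped between these cultures, and 22.3% of all genes were lower in that way. PSMB9 differed by -2.32 ± 0.18 (SE, limma adjusted p 1.62e-10), with 6.52 ± 0.18 in co-culture and 8.84 ± 0.29 in HER2 L755S (SD, n = 4 each). HLA-F differed by -1.85 ± 0.10 (1.46e-13), at 10.75 ± 0.06 in co-culture and 12.60 ± 0.10 in HER2 L755S. TAP1 differed by -1.53, HLA-C by -1.52, PSMB8 by -1.29, B2M by -1.20 and HLA-E by -1.12. TAP2 differed by -0.50 (limma adjusted p 0.000167). It was the member that did not exceed a 0.5 margin, which 17.8% of all genes exceeded in either direction. PSMB8 minus PSMB5 was lower in co-culture by -1.95 and PSMB9 minus PSMB6 by -2.72 (exact permutation p 0.0286 and adjusted p 0.0367 each). In a mixed culture, fewer HER2 L755S cells and less RNA per cell cannot be told apart.

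Against the PIK3CA E545K culture, the source of the minority of its cells, the members of the co-culture differed by at most 0.52 on the log2 scale. By limma, 5 of 8 were higher in co-culture and 0 lower, where 11.1% of all genes were higher and 14.6% lower, and 0 of 8 had a difference of 1 or more in size (1.48% of all genes higher and 1.95% lower). The median difference was 0.34 over the members and -0.02 over all genes. HLA-F was higher by 0.52 ± 0.10 (SE, limma adjusted p 0.000247), at 10.75 ± 0.06 in co-culture and 10.22 ± 0.15 in PIK3CA E545K (SD, n = 4 each). TAP1 was higher by 0.51 (0.00395), PSMB8 by 0.41 (0.0244), HLA-E by 0.35 (0.0159) and B2M by 0.33 (0.00382). HLA-C differed by 0.01, with a 95% interval from -0.21 to 0.23, and PSMB9 by 0.13, from -0.24 to 0.50. TAP2 differed by -0.19, from -0.39 to 0.01 (limma adjusted p 0.168), although its arrays did not overlap, a property that 16.5% of all genes shared in the lower direction. The 5 called members were also without overlap, as were 11.9% of all genes in the higher direction. The count of 5 fell to 3 without co-culture replicate 4 or without PIK3CA E545K replicate 2, when HLA-E (adjusted p 0.0624 and 0.0653) and PSMB8 (0.0702 and 0.104) no longer passed, and to 0 against a 0.5 margin, which 3.44% of all genes exceeded. PSMB8 minus PSMB5 was higher in co-culture by 0.48 (exact permutation p 0.0286, adjusted 0.0367). PSMB9 minus PSMB6 differed by 0.14 (exact p 0.543). The comparisons share arrays of each culture, so they are not independent of each other.

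Each member's co-culture signal was then placed between those of the single cultures on the linear scale, with the PIK3CA E545K mean at 0% and the HER2 L755S mean at 100%. HLA-E lay at 15.3%, PSMB8 at 14.6%, TAP1 at 13.7%, B2M at 13.6% and HLA-F at 10.4%. PSMB9 lay at 2.07% and HLA-C at 0.237%. The PSMB9 signal was near background in co-culture and in PIK3CA E545K, so its position is not comparable with those of the other members. The spread over the 4 co-culture arrays was wide for HLA-C, 0.57% ± 6.74, and narrow for HLA-F, 10.5% ± 1.49 (SD, n = 4). For TAP2 the lines were too close for a useful position. The 7 members with a log2 difference of 1 or more between the lines had a median of 13.6%, and the 1150 genes called higher in HER2 L755S with as large a difference had a median of 18.2% (quartiles 7.13% and 31.2%). Low positions were thus common among genes high in the HER2 L755S line, and no member reached the 75% of HER2-mutant cells given in the labels.

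**Figure D4:**
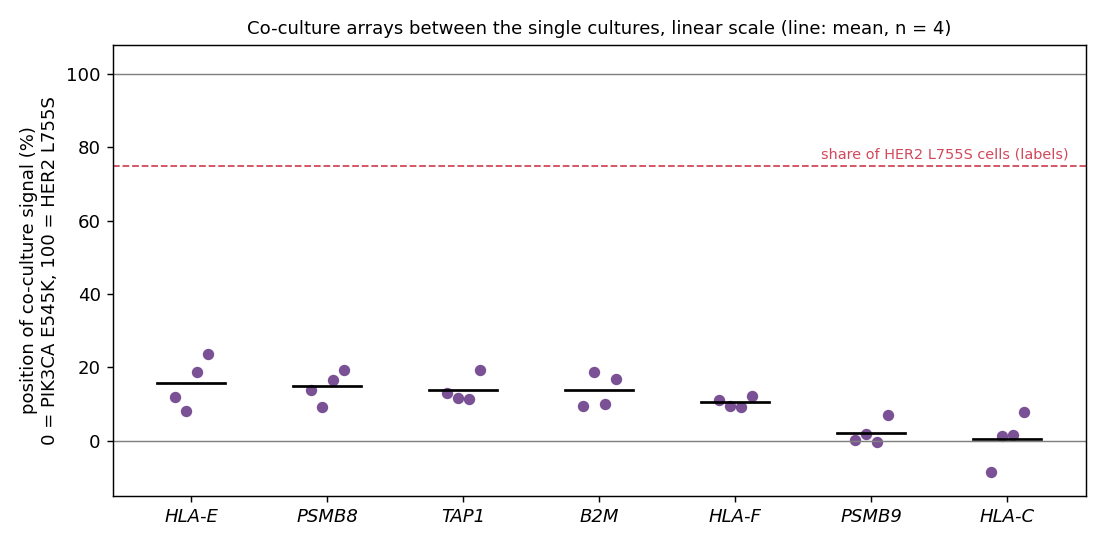
Position of each co-culture array (points) between the mean of the PIK3CA E545K culture (0%) and of the HER2 L755S culture (100%) on the linear scale, for the 7 members with a log2 difference of 1 or more between the lines. Short lines are means of 4 arrays, the dashed line is the share of HER2-mutant cells given in the labels (75%), and mean positions run from 0.57% to 15.6%. PSMB9 was near background in co-culture and in PIK3CA E545K.

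Against an expected blend of 75% of the HER2 L755S mean and 25% of the PIK3CA E545K mean, which assumes equal RNA per cell, all 8 members were lower in co-culture by limma. Of all genes, 22.3% were lower and 18.5% higher than their blend. PSMB9 was below the blend by -1.99 ± 0.17 (SE, limma adjusted p 4.18e-09), HLA-F by -1.53 ± 0.09 (1.22e-11), HLA-C by -1.27 ± 0.10 and TAP1 by -1.22 ± 0.12. PSMB8 was below it by -1.02, B2M by -0.94, HLA-E by -0.87 and TAP2 by -0.43 (limma adjusted p 0.000504). Thus 5 of 8 members were at least 1 below the blend, as were 3.24% of all genes. That share is over all genes, whereas 7 of 8 members were higher in HER2 L755S by 1 or more. Among the 1150 genes with as large a difference, low co-culture positions were common (median 18.2%). With 65% or 85% HER2-mutant cells in the blend, 8 of 8 were still lower, and HLA-F differed by -1.37 and -1.67.

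Partner genes outside the set were taken from lists chosen with earlier results of these data known. Of 9 tested genes for HLA-G and peptide loading, 5 were higher and 3 lower in HER2 L755S than in PIK3CA E545K (limma), where 30% and 29.5% of all genes were. Among the 5, ERAP2 (0.77) was above background on 0 arrays, and its difference is one of signals at background. ERAP1, which trims peptides in the endoplasmic reticulum, was higher by 2.67, at 11.61 ± 0.21 in HER2 L755S and 8.94 ± 0.10 in PIK3CA E545K (SD, n = 4 each). TAPBP, the bridge between TAP and the heavy chain called tapasin, was higher by 1.63 and HLA-G by 1.30. TAPBPL, a tapasin relative, was higher by 1.98 and above background only on HER2 L755S arrays, so its difference is a lower limit in size. Among the genes in the other direction were a thiol oxidoreductase of the loading complex and a protease, with PDIA3 at -0.52 and the signal peptide protease HM13 at -0.73. In co-culture, ERAP1 differed from HER2 L755S by -2.18 and from PIK3CA E545K by 0.48, and TAPBP by -1.16 and 0.46.

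Of 12 tested genes of the proteasome and cytosolic peptidases, 3 were higher and 8 lower in HER2 L755S than in PIK3CA E545K (30% and 29.5% of all genes). PSME1, a subunit of the interferon-inducible PA28 activator, was higher by 1.62 and the aminopeptidase NPEPPS by 0.87. POMP, which assembles new proteasomes, was lower by -0.94 and the aminopeptidase LAP3 by -0.74. In co-culture, 7 of these 12 were higher and 2 lower than in HER2 L755S (24.9% and 26.0% of all genes), among them PSME1 at -1.04 and POMP at 0.73. PSME1 in co-culture was 0.58 above PIK3CA E545K (limma adjusted p 6.07e-05).

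Of 17 tested regulators of class I transcription and interferon signalling, 11 were higher and 1 lower in HER2 L755S than in PIK3CA E545K, where 30% and 29.5% of all genes were. RFXAP, a subunit of the RFX complex that binds MHC promoters, was higher by 1.94, a lower limit in size with 0 PIK3CA E545K arrays above background, the NF-kB subunit RELB by 1.78 and the interferon regulatory factor IRF1 by 1.67. EZH2, the methyltransferase of the Polycomb repressive complex, was lower by -1.81. It was above background on 3 of 4 HER2 L755S arrays, so its differences from HER2 L755S are lower limits in size. NLRC5, the transactivator of class I genes, was above background on 0 arrays and was not tested, and was named after its values were seen. IRF1, unlike the 8 members, was not called lower in co-culture than in HER2 L755S. It had 8.61 ± 0.14 in co-culture, against 8.35 ± 0.34 in HER2 L755S and 6.68 ± 0.08 in PIK3CA E545K (SD, n = 4 each). It was 1.93 higher in co-culture than in PIK3CA E545K (limma adjusted p 4.55e-09) and differed from HER2 L755S by 0.26 (0.178). This was not particular to IRF1. NFKB1, named after its values were seen, was 0.71 higher in co-culture than in PIK3CA E545K (limma adjusted p 3.76e-06). It differed from HER2 L755S by 0.13 (0.263). Of the 17 regulators, 9 were lower and 3 higher in co-culture than in HER2 L755S (26.0% and 24.9% of all genes). RELB and RFXAP in co-culture each differed from HER2 L755S by -0.96, and EZH2 by 2.08.

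**Figure D5:**
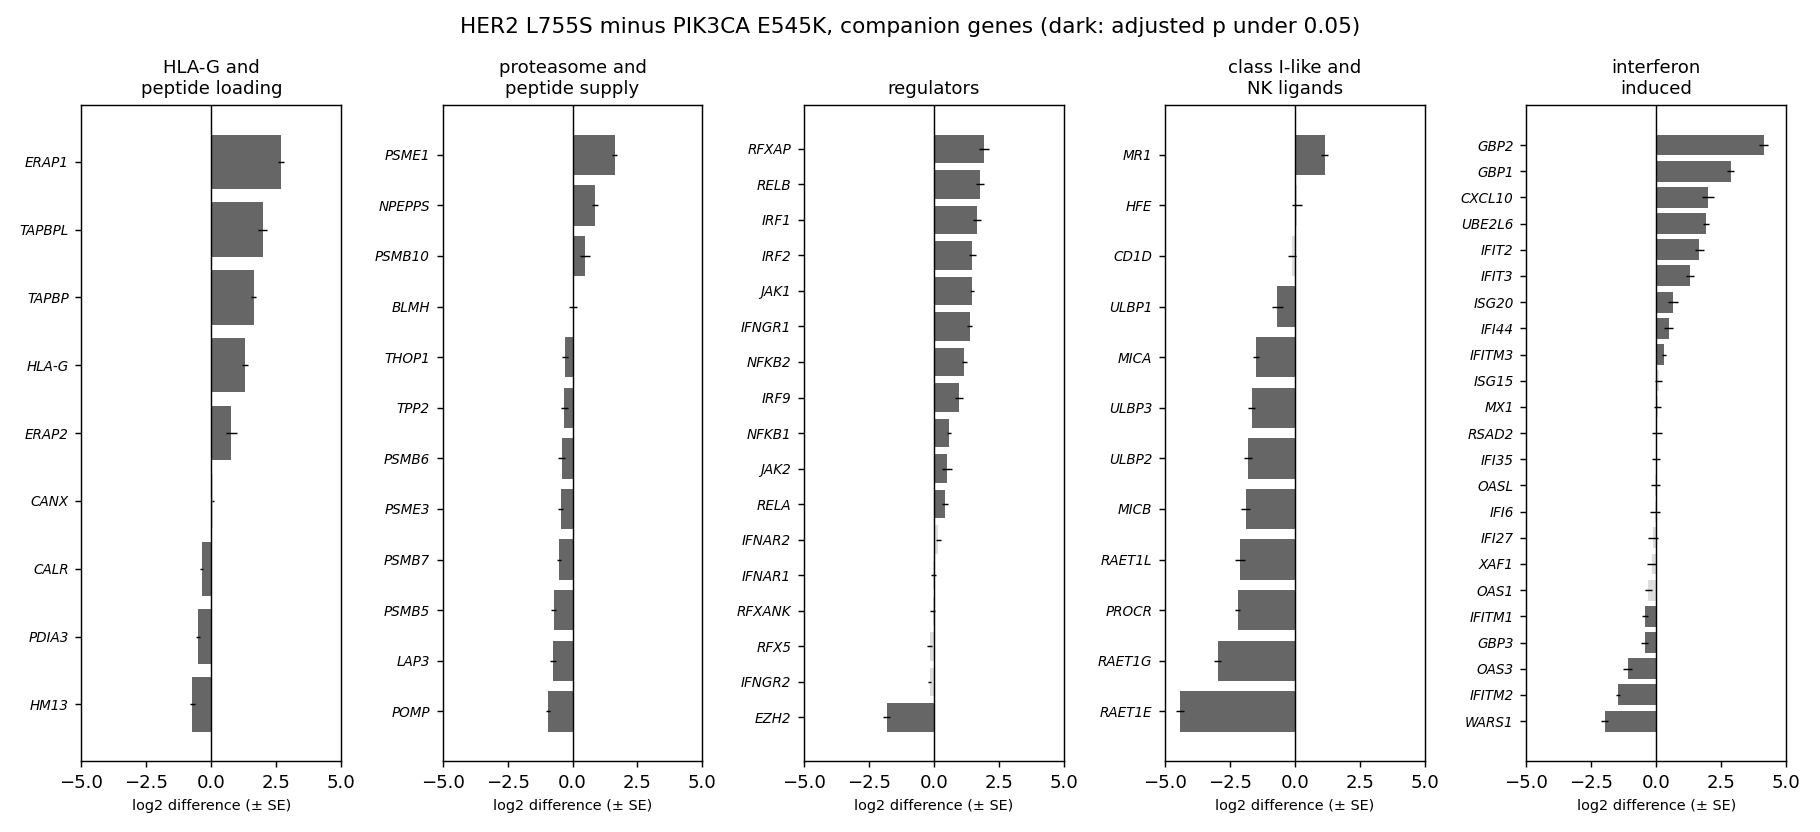
Log2 difference HER2 L755S minus PIK3CA E545K (horizontal axes, bars ± SE from limma, n = 4 arrays per group) of the tested genes in 5 partner lists. Dark bars have an adjusted p under 0.05; 11 of 17 regulators pass to the right, and 9 of 12 class I-like and NK ligand genes pass to the left.

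Relatives of class I that act as ligands of natural killer cells went against the members. Of 12 tested class I-like genes and NK ligands, 1 was higher and 9 lower in HER2 L755S (30% and 29.5% of all genes), with a median of -1.75 against 0.05 over all genes. RAET1E, a ligand of the activating receptor NKG2D, was lower by -4.43 (limma adjusted p 1.51e-16), at 7.11 to 8.19 on the HER2 L755S arrays and 11.95 to 12.07 on the PIK3CA E545K arrays. RAET1G was lower by -2.98, PROCR, the class I-like receptor of protein C, by -2.20, and RAET1L by -2.11. MR1, which presents vitamin metabolites to MAIT cells, was higher by 1.14. In co-culture, 9 of the 12 were higher and 1 lower than in HER2 L755S, RAET1E by 2.58, and RAET1E was still -1.85 from PIK3CA E545K. RAET1 genes are alike in sequence, so signal may be shared among them. RAET1G was above background on 0 and RAET1L on 1 of 4 HER2 L755S arrays, so their differences are lower limits in size.

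The class II genes were at background. Of 12 class II genes with a probe set, all were above background on 0 arrays, including the transactivator CIITA and HLA-DRA (both named after their values were seen), and 5 passed the filter. Among these CTSS, a protease that also acts outside class II presentation, was higher in HER2 L755S by 1.66 and HLA-DMA by 0.57.

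Of 23 tested interferon-induced genes, 9 were higher and 5 lower in HER2 L755S than in PIK3CA E545K, beside 30% and 29.5% of all genes. Their median difference was 0.02, against 0.05 over all genes. The guanylate-binding genes GBP2 and GBP1 were higher by 4.13 and 2.87. GBP2 was above background on 1 of 4 PIK3CA E545K arrays, so its difference is a lower limit in size. The chemokine gene CXCL10 was higher by 1.99 with 0 arrays above background. ISG20 (0.64) and IFI44 (0.48), also counted as higher, were likewise above background on 0 arrays. IFIT2 (1.66) and IFIT3 (1.29), higher too, were above it on 1 and 2 HER2 L755S arrays only, so these are differences of signals near background. WARS1, the interferon-inducible tryptophan tRNA synthetase, was lower by -1.99 and IFITM2 by -1.48. ISG15, MX1 and RSAD2, named after their values were seen, were above background on 0 arrays. By contrast, OAS1, OAS3, IFI35, GBP1, GBP3, IFITM1, IFITM2, IFITM3, WARS1 and UBE2L6 were above it on all 12 arrays. A further list held ubiquitin ligase and protease genes drawn up around class I at the surface, and their action on class I was not tested here. In this list of 5 tested genes, 4 were higher and 0 lower (30% and 29.5% of all genes). The ubiquitin ligase genes MARCHF9, MARCHF8 and SYVN1 were higher by 1.60, 1.51 and 0.72, and the protease gene SPPL3 by 0.64. MARCHF9 was above background on 2 of 4 PIK3CA E545K arrays, so its difference is a lower limit in size.

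The genes most like the members in profile were found by the root-mean-square difference between log2 profiles centred per gene, over 12 arrays, from the mean profile of the 8 members. Over 12649 kept genes outside the members and lists the median of this distance was 0.75. STAT6, the transcription factor of interleukin-4 signalling, was closest at 0.10, with 10.68 ± 0.11 in co-culture, 11.95 ± 0.19 in HER2 L755S and 10.37 ± 0.08 in PIK3CA E545K (SD, n = 4 each). DIPK2A, FOXO3 and BSDC1 followed at 0.12, TBCK at 0.13 and DTX3L, a ubiquitin ligase, at 0.14. Among the members the distance ran from 0.14 for B2M to 0.44 for PSMB9 and 0.58 for TAP2.

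Markers of cell types, of which single genes are named after their values were seen, were read beside these results. Of 8 leukocyte markers with a probe set, 0 were above background on all arrays and 5 on none, and their mean log2 signal was 5.14 to 5.37 in co-culture, 4.80 to 4.99 in HER2 L755S and 5.08 to 5.22 in PIK3CA E545K. CD14 and CD68 were lower in HER2 L755S by -2.12 and -2.15, lower limits in size since both were above background on 0 HER2 L755S arrays. CD3E was higher by 0.54 (limma adjusted p 0.0227) with 0 arrays above background, and the other 2 tested, NKG7 (0.33) and ITGAM (0.23), did not pass. The median of the 5 tested leukocyte markers was 0.23. Of 4 tested luminal epithelial markers, KRT8 (2.32), KRT19 (1.25) and GATA3 (0.93) were higher in HER2 L755S than in PIK3CA E545K and KRT18 (-2.32) was lower. The luminal list averaged 9.99 to 10.19 in co-culture, 10.16 to 10.36 in HER2 L755S and 9.62 to 9.83 in PIK3CA E545K. Its median difference was 1.09 in HER2 L755S against PIK3CA E545K and -0.69 in co-culture against HER2 L755S, and its part in the members' differences was not tested. Of 4 fibroblast markers, the proteoglycan gene DCN was higher in HER2 L755S by 3.62, while COL1A1 (0.09) and COL1A2 (0.14) did not pass. The fibroblast list averaged 6.75 to 6.94 in co-culture, 7.34 to 7.61 in HER2 L755S and 6.39 to 6.73 in PIK3CA E545K, and its part in the members' differences was not tested. All 3 endothelial markers were above background on 0 arrays.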

How the data were processed

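RNA (5 µg per sample) was labelled with a whole-transcript kit, per the labels' protocols. The table deposited by the authors holds log2 signals, 1 per probe set, and the submitters' processing notes name the Transcriptome Analysis Console. Its version, background correction, summarization and normalization are not given in the sources used here. Of 24351 probe sets, 17709 named 1 gene and 0 named several. The brightest was used for the 20 genes with several. A gene was kept above the 30th percentile of its array's named probe sets on at least 4 of 12 arrays. The 3 groups were fitted together in limma 3.58.1 (R 4.3.3), with eBayes and its trend option, two-sided, and Benjamini-Hochberg adjustment over 12758 genes. The blend test used delta-method weights. Subunit pairs used exact permutation tests (scipy 1.17.1). The method was tested on simulated data. The members, the lists and the rule for named genes (all members, and up to 4 called genes per list with the largest difference between the lines, and up to 2 against the list's majority) were chosen with earlier results of these data known. Groups came from the labels, with 0 arrays unassigned. Precision is limited by having 4 arrays per group.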

Additional observations from a re-analysis of the deposited data

How the results depend on the processing

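The member counts for the HER2 L755S culture against the PIK3CA E545K culture, for the co-culture against HER2 L755S and for the co-culture against the blend were 8 without any 1 array, and for the co-culture against PIK3CA E545K 3 to 5. The last count was 0 against the margin of 0.5. With that margin 3524, 2269 and 439 genes passed in the 3 pairwise comparisons, against 7587, 6503 and 3273 in the fit as reported. HLA-C in co-culture against PIK3CA E545K turned its sign without some arrays (-0.06 to 0.09), as did PSMB9 (-0.01 to 0.26); neither passed in any of these fits. PSMB8 in that comparison also lost its call without co-culture replicate 3 (adjusted p 0.0606) or PIK3CA E545K replicate 3 (0.0709); the cause was not tested. Same-numbered arrays of different groups were not paired by the labels, and their deviations correlated at -0.03 to 0.06; with the replicate block the member counts were 8, 8, 5 and 8, with 7604, 6506, 3335 and 5258 genes called. The subunit pairs cannot pass with 3 arrays against 4 (smallest exact p 0.0571) or as 4 pairs (0.125), and are values only there. The mean of the 3 pairs differed by 2.10 between HER2 L755S and PIK3CA E545K and by -1.92 between co-culture and HER2 L755S. It differed by 0.18 between co-culture and PIK3CA E545K (exact permutation p 0.0571), where PSMB8 minus PSMB5 loses its call and PSMB10 minus PSMB7 (-0.07) has the other sign. No probe set named a member beside other genes, so that alternative was not run.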
